A study of Mus musculus with 11 samples.

Results

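The 6 SLAM family receptor genes Slamf6, Slamf1, Slamf7, Ly9, Cd48 and Cd84 and the 2 SH2-domain adaptor genes Sh2d1a and Sh2d2a were followed in precursor exhausted CD8+ T cells after LAG-3 blockade. These 8 genes were listed by name out of 32469 gene symbols in the count table. All 8 had reads in every library and passed the filter on low counts, which left 6949 symbols for testing.

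SLAM family receptors are immunoglobulin-type cell surface proteins of blood cells. Most of them bind a second copy of themselves on a neighboring cell, whereas CD48 is bound by CD2 and CD244. When a receptor is engaged, tyrosine motifs in its tail recruit SAP, the small adaptor encoded by Sh2d1a, which brings in the kinase Fyn, and in the absence of SAP the same motifs can recruit the phosphatases SHP-1, SHP-2 and SHIP-1. Ly108, the product of Slamf6, is widely used to mark precursor exhausted T cells, the self-renewing cells that give rise to terminally exhausted ones.

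The libraries came from wild-type C57BL/6 mice that carried subcutaneous tumors of Lewis lung carcinoma, a mouse lung cancer line, after inoculation of 500000 cells in each flank. The methods give an age of 8 weeks for the mice. In the aLAG3 group, 6 libraries came from mice injected with 200 µg of the LAG-3 blocking antibody C9B7W on day 14 and again on day 16, and the 5 libraries of the other group came from untreated mice, for which no control antibody is described. Tumor excision is given as days 14 and 18 in the methods, but as days 14 and 21 in the deposited design. For the bulk RNA libraries, the paper places the excision on day 18 in both groups. The sort from the tumors of both groups included gates for CD8+, PD-1+, Ly108+ and TIM-3- cells, so that Ly108 protein was itself a gate and the Slamf6 values describe cells already selected for its product. In sorted bulk cells, a different share of cells and a different amount of RNA per cell cannot be told apart.

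Total counts ranged from 317449 to 1271063 in untreated and from 313524 to 1901374 in aLAG3 libraries (exact two-sided permutation test of mean log2 totals, p = 0.868). All 6 libraries with primer barcode 9 were deeper than the other 5. The 6 were 3 from each group, whereas barcode 8 held 1 untreated and 3 aLAG3 libraries, and barcode 10 was a single untreated library, untreated 2. An index label in the titles is shared by untreated 2, untreated 3 and aLAG3 10, and another by untreated 4 and 5, while the other 6 libraries each have their own. The shallowest libraries, untreated 2 and aLAG3 10, held 8 to 237 counts per member, and values from them have the widest counting error. The 6 CD8 T cell genes summed to 5028 ± 112 CPM (counts scaled to library depth) in untreated and to 5117 ± 183 CPM in aLAG3 libraries. Here and below, values after ± are SDs, over 5 untreated and 6 aLAG3 libraries unless another number is given. Havcr2, the gene of the excluded TIM-3, had 0 to 7 counts per library. The log2 fold changes of other genes of the sort, aLAG3 over untreated, were 0.019 for Cd8a and -0.24 for Pdcd1 (the gene of PD-1, unadjusted p = 0.0214 in edgeR). Of the 6 markers of precursor exhausted cells, all had reads, but Id3 and Cxcr5 had at most 12 and 11 counts in a library. Over 12 lists of cell type markers, no summed level differed between the groups after adjustment (exact permutation test, smallest adjusted p = 0.768). Of the natural killer cell markers, Klra8 had no read, Ncr1 had 1 read in all and Klrb1c had 13 reads in all, spread over 8 libraries.

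No member passed the adjusted threshold. The edgeR quasi-likelihood test, adjusted by Benjamini-Hochberg over all tested genes, gave an adjusted p of 0.999 for each of the 8. In that test, 0 of 6949 genes passed an adjusted p of 0.05 (0%), while 259 genes (3.73%) had an unadjusted p under 0.05. edgeR's likelihood ratio test and DESeq2 also made 0 adjusted calls, with 307 and 163 genes at an unadjusted p under 0.05. Among the members, 1 of 8, Cd84, was under that unadjusted level, higher in aLAG3 libraries, a direction in which 1.74% of all genes were called, and 0 of 8 were lower at that level, against 1.99% of all genes. No member had groups without overlap, against 0.475% of all genes. Fitted log2 fold changes were above 0 for 3 members and below 0 for 5, with a median of -0.037, while 51.1% of all tested genes were above 0 and their median was 0.0045.

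**Figure D1:**
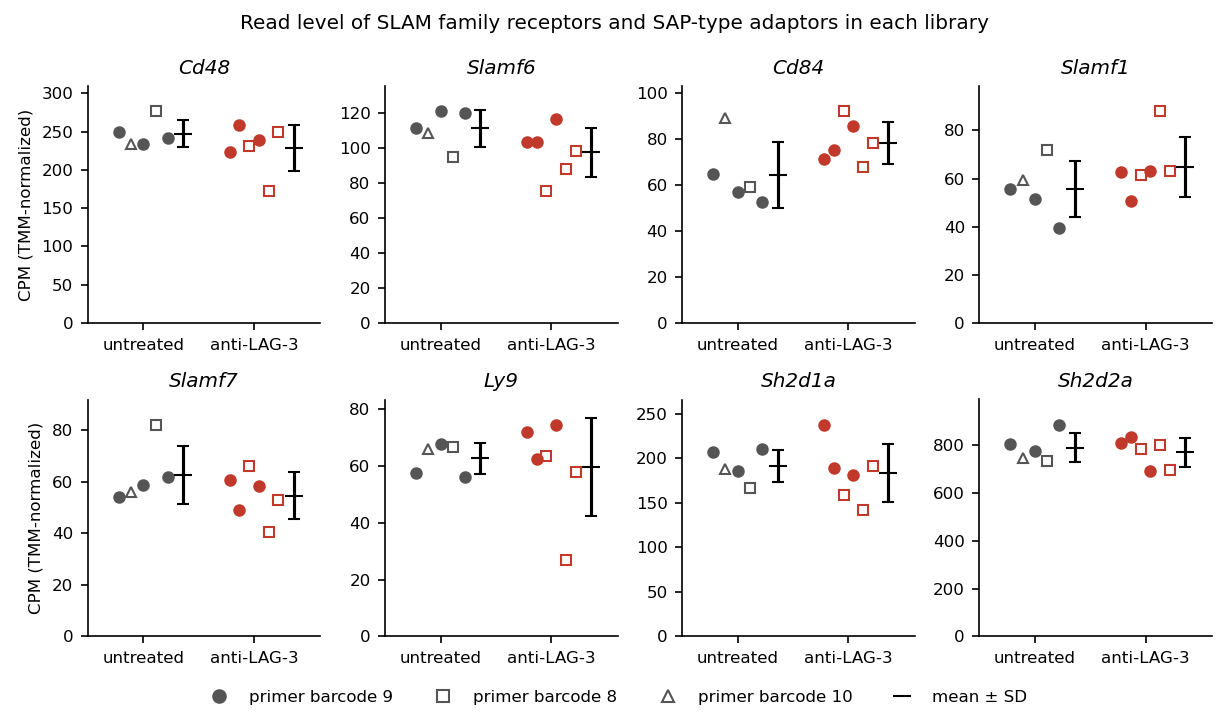
Level of each gene in every library, in CPM on TMM-normalized library sizes, with axes starting at 0. Gray marks are the 5 untreated and red marks the 6 aLAG3 libraries, the mark's shape gives the primer barcode, and the black bar is the mean ± SD. The groups overlap for all 8 genes, and a single untreated library, at 89.0 CPM, reaches into the aLAG3 range for Cd84.

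Slamf6 encodes the sorted marker Ly108 and lies on chromosome 1 of GRCm38 from 171917515 to 171953170, on the plus strand. Its level in untreated libraries 1 to 5 was 112, 109, 121, 94.8 and 120 CPM. In aLAG3 libraries the lowest value was 75.5, the median 100.8 and the highest 117 CPM. The groups overlapped, with 5 of 6 aLAG3 libraries below the untreated mean and 2 of 6 below the lowest untreated library. The means were 111 ± 10.6 CPM and 97.5 ± 14.2 CPM, and the log2 fold change of -0.17 (standard error 0.126) had a 95% interval from -0.43 to 0.086 (edgeR, unadjusted p = 0.184). Both aLAG3 libraries below the untreated range carried primer barcode 8, as did the lowest untreated library. Within barcode 9, where the groups are balanced, Slamf6 had 118 ± 5.14 CPM in the 3 untreated and 108 ± 7.70 CPM in the 3 aLAG3 libraries (exact two-sided permutation test, p = 0.2, where 3 against 3 cannot go below 0.1). An antisense gene, Gm37065, overlaps Slamf6, and since the sources used here do not state whether counting used strand, their reads may not be separable. Gm37065 was counted with 48 reads in all and Slamf6 with 894.

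Cd84 encodes a self-binding receptor whose tail also recruits SAP, and lies on chromosome 1 from 171839697 to 171890718, on the plus strand. Its level in untreated libraries 1 to 5 was 64.9, 89.0, 57.0, 58.9 and 52.5 CPM. In aLAG3 libraries the lowest value was 67.6, the median 76.7 and the highest 92.0 CPM. All 6 aLAG3 libraries lay above the untreated mean, and 4 of 5 untreated libraries lay below the lowest aLAG3 library. The exception was untreated 2, where 27 counts gave 89.0 CPM with a 95% exact Poisson interval of 58.6 to 129 CPM, which covers counting error only. The lowest aLAG3 library, aLAG3 10, had 20 counts and an interval of 41.3 to 104 CPM. That of aLAG3 11, from 31 counts, was 53.1 to 111 CPM, and both intervals cover values of untreated libraries.

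The means of Cd84 were 64.4 ± 14.4 CPM in untreated and 78.3 ± 9.12 CPM in aLAG3 libraries. The log2 fold change was 0.32 (standard error 0.148, 95% interval 0.015 to 0.62, unadjusted p = 0.0403 in edgeR's quasi-likelihood test), or 1.25-fold with an interval of 1.01 to 1.54. Within barcode 9 the means were 58.1 ± 6.26 CPM and 77.4 ± 7.47 CPM, with all 3 aLAG3 libraries above all 3 untreated ones (exact two-sided permutation test, p = 0.1, the smallest value 3 against 3 allows). Within barcode 8, the lone untreated library had 58.9 CPM and the 3 aLAG3 libraries lay between 67.6 and 92.0 CPM. With the index label as a covariate, a fit that compares only aLAG3 10 with untreated 2 and 3 and was added after seeing the data, the log2 fold change of Cd84 was 0.026 (standard error 0.409). The difference kept its sign each time a library was left out, with log2 fold changes of 0.27 to 0.40. The unadjusted p, however, was under 0.05 in 4 of these 11 fits, those without untreated 2 and aLAG3 6, 7 or 10, and reached 0.121 without untreated 3. Adjusted over all genes tested (Benjamini-Hochberg, edgeR quasi-likelihood), p was 0.722 or more for Cd84 under every alternative. Myeloid cells also express Cd84, and 7 myeloid markers, of which all 7 had reads, summed to 52.9 ± 16.0 CPM (range 35.7 to 78.8) in untreated and 72.9 ± 29.7 CPM (range 43.7 to 124) in aLAG3 libraries (exact two-sided permutation test, p = 0.195). The gating plots of the study exclude cells with CD11b, the product of the marker Itgam, which had 23 reads in all. Mean levels of Itgam and Fcer1g were lower in aLAG3 libraries, and those of Lyz2, Csf1r, Cd68, C1qa and Adgre1 were higher. Fcer1g, with 213 reads, had a mean of 28.3 CPM in untreated and 23.0 CPM in aLAG3 libraries. Cd68, with 146 reads, had 10.7 and 23.2 CPM. The part of myeloid cells in the Cd84 values was not tested.

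Slamf1, also named CD150, is the self-binding receptor that gave the family its name, and lies on chromosome 1 from 171767127 to 171801184, on the plus strand. Untreated libraries 1 to 5 had 55.8, 59.3, 51.6, 71.7 and 39.4 CPM of it. The aLAG3 libraries ran from 50.5 CPM through a median of 62.8 to 87.9 CPM. The groups overlapped widely, although 5 of 6 aLAG3 libraries were above the untreated mean. The highest value came from aLAG3 10 and rested on 26 counts. The log2 fold change was 0.18 (standard error 0.168, 95% interval -0.16 to 0.53, edgeR, unadjusted p = 0.285). It was 0.098 without untreated 5, the lowest library, and 0.115 without aLAG3 10.

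Ly9, also named CD229, is a self-binding receptor that recruits SAP, and lies on the minus strand of chromosome 1 from 171588624 to 171607410. Its untreated libraries 1 to 5 were close together at 57.5, 65.9, 67.6, 66.6 and 56.3 CPM. In aLAG3 libraries the lowest value was 27.1, the median 63.2 and the highest 74.5 CPM. The lowest was aLAG3 10, where 8 counts gave a 95% exact Poisson interval of 11.7 to 53.3 CPM. The next library, aLAG3 11, had 58.0 CPM with an interval of 36.8 to 87.0 CPM, which overlaps that of aLAG3 10. The mean was lower in aLAG3 (59.7 ± 17.1 CPM) than in untreated libraries (62.8 ± 5.44 CPM), while the fitted log2 fold change, which weighs libraries by depth, was slightly above 0, at 0.016 (standard error 0.166, 95% interval -0.33 to 0.36). Without aLAG3 10 it was 0.097 (standard error 0.147), and within barcode 9 it was 0.17, with means of 60.5 ± 6.24 CPM and 69.7 ± 6.28 CPM (exact two-sided permutation test, p = 0.2). No direction can be given for Ly9, since leaving out other libraries turned the sign. With the index label as a covariate the log2 fold change was -1.31. In that fit aLAG3 10, the lowest library, is the only aLAG3 library compared, so its sign adds nothing on direction. The gene overlaps Cd244a on the opposite strand.

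Slamf7, also named CRACC, is a self-binding receptor known for its role in natural killer cells and for working with the adaptor EAT-2, and lies on the minus strand of chromosome 1 from 171632403 to 171653035. In untreated libraries 1 to 5 it had 54.2, 56.0, 58.7, 82.0 and 61.9 CPM. Among aLAG3 libraries it ran from 40.6 through a median of 55.7 to 66.1 CPM. Here 3 of 6 aLAG3 libraries were below the untreated range, and untreated 4 was the highest of all libraries. The log2 fold change was -0.15 (standard error 0.160, 95% interval -0.48 to 0.18, edgeR, unadjusted p = 0.352), and within barcode 9 the means were 58.3 ± 3.87 CPM and 56.0 ± 6.27 CPM. Without untreated 4 the log2 fold change was -0.065, and without aLAG3 7 it was -0.092. Of the 50-base stretches of its transcripts, 7.14% also occur in the antisense gene Gm37787, which was counted with 1 read in all, against 475 for Slamf7.

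Cd48 encodes a receptor that is held to the membrane by a lipid anchor and has no signaling tail, and lies on chromosome 1 from 171682009 to 171705258, on the plus strand. In untreated libraries 1 to 5 it had 250, 234, 234, 277 and 242 CPM. In aLAG3 libraries the lowest value was 172, the median 235 and the highest 258 CPM. Apart from aLAG3 10, at 51 counts, the aLAG3 libraries had 223 to 258 CPM and stood within or close to the untreated range. The log2 fold change was -0.084 (standard error 0.100, 95% interval -0.29 to 0.12, edgeR, unadjusted p = 0.409), -0.036 (standard error 0.094) without aLAG3 10, -0.048 without untreated 4 and -0.13 without aLAG3 7. Within barcode 9 the means of Cd48 were 242 ± 7.79 CPM and 240 ± 17.6 CPM. Cd2, whose product binds CD48, had 421 ± 24.5 CPM and 432 ± 54.2 CPM, a log2 fold change of 0.059 (standard error 0.088).

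Sh2d1a encodes SAP and lies on the X chromosome from 42502453 to 42529330, on the plus strand. In untreated libraries 1 to 5 it had 207, 188, 186, 166 and 210 CPM. Values in aLAG3 libraries went from 142 through a median of 185 to 237 CPM. The aLAG3 libraries thus reached both above and below the untreated ones, with 1 above and 2 below their range. The log2 fold change was -0.039 (standard error 0.115, 95% interval -0.28 to 0.20), and its sign turned within barcode 9. Of the 50-base stretches of the Sh2d1a transcripts, 25.6% also occur in transcripts of Tenm1 and other genes, but Tenm1 itself had 3 reads in all libraries together.

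Sh2d2a encodes TSAd, a T cell adaptor that binds the kinase Lck and resembles SAP only in having an SH2 domain, and lies on chromosome 3 from 87846755 to 87855722, on the plus strand. It had the highest counts of the members, with 226 to 1523 per library. Untreated libraries 1 to 5 had 806, 745, 777, 732 and 885 CPM. In aLAG3 libraries the lowest value was 694, the median 794 and the highest 837 CPM. The groups overlapped, with 2 of 6 aLAG3 libraries below the untreated range and 1 of 5 untreated libraries above the aLAG3 range, and the log2 fold change of -0.034 (standard error 0.073) had the narrowest 95% interval of the members, from -0.18 to 0.12. In linear terms this interval runs from 12.0% lower to 8.37% higher, whereas for Slamf1, the member with the widest interval, it runs from 10.6% lower to 44.3% higher.

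**Figure D2:**
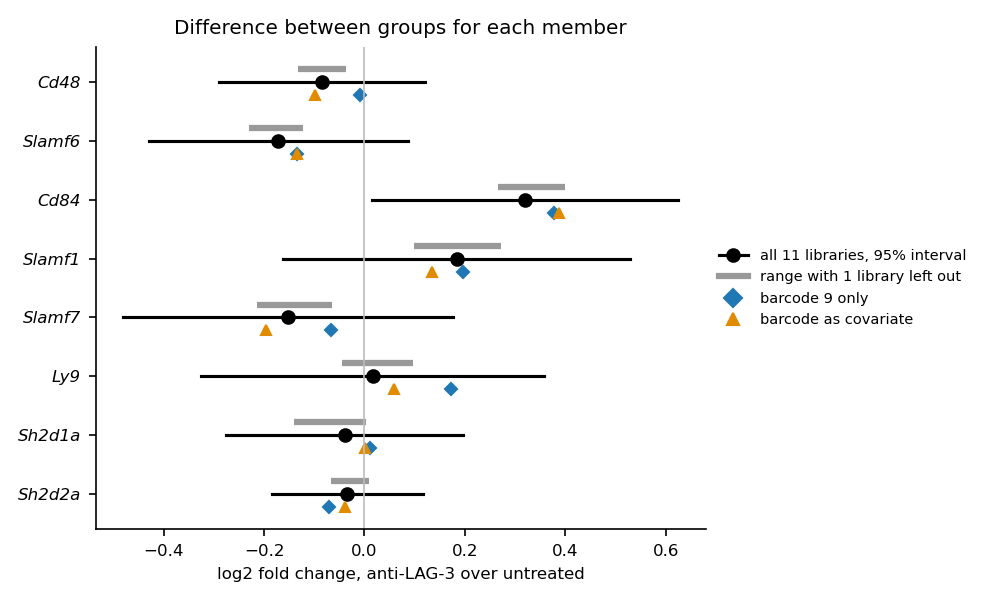
Log2 fold change of each gene, aLAG3 over untreated. Black points and lines give the estimate and 95% interval from all 11 libraries, gray bars the range of estimates when 1 library is left out, blue diamonds the fit to barcode 9 alone, and orange triangles the fit with barcode as a covariate. The fit with barcode as a covariate leaves out untreated 2, the only library with barcode 10. The interval of Cd84, from 0.015 to 0.62, is the only one above 0 before adjustment, and the estimates for Ly9, Sh2d1a and Sh2d2a cross 0 when libraries are left out.

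Levels were compared between members per transcript length. Per kilobase of the longest coding transcript, Cd48 (200 ± 21.95 CPM per kb), Sh2d2a (174 ± 13.1) and Sh2d1a (153 ± 21.3) formed an upper set (SD, n = 11). The other 5 receptor genes formed a lower set, with Ly9 at 24.6 ± 5.10, Slamf1 at 22.5 ± 4.61, Cd84 at 21.0 ± 3.88, Slamf6 at 18.1 ± 2.46 and Slamf7 at 14.6 ± 2.63 CPM per kb. Each gene of the upper set was above each gene of the lower set in 11 of 11 libraries. Within the lower set neighbors were not separated, since Ly9 was above Slamf1 in 9, Slamf1 above Cd84 in 6, Cd84 above Slamf6 in 8 and Slamf6 above Slamf7 in 9 of 11 libraries.

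The order inside both sets depended on the length used. With the mean length of a gene's coding transcripts, the upper set became Sh2d2a (248 CPM per kb), Sh2d1a (227) and Cd48 (225), and the lower set was led by Slamf6 (43.5), followed by Slamf7 (32.6), Cd84 (31.2), Ly9 (27.2) and Slamf1 (22.5). Slamf6 thus moved from place 7 to place 4 of 8, because its longest coding transcript measures 5.73 kb and the mean of its 4 coding transcripts 2.39 kb. The methods place the sample barcode at the template-switch end of the cDNA before fragmentation and do not state how reads cover a transcript, so a level per kilobase may not be the right scale. On plain CPM, without division by length, the order was Sh2d2a (779 CPM), Cd48 (237), Sh2d1a (187), Slamf6 (104), Cd84 (72.0), Ly9 (61.1), Slamf1 (60.6) and Slamf7 (58.2). The same 3 genes led on all of these scales, and no order within the sets can be given.

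**Figure D3:**
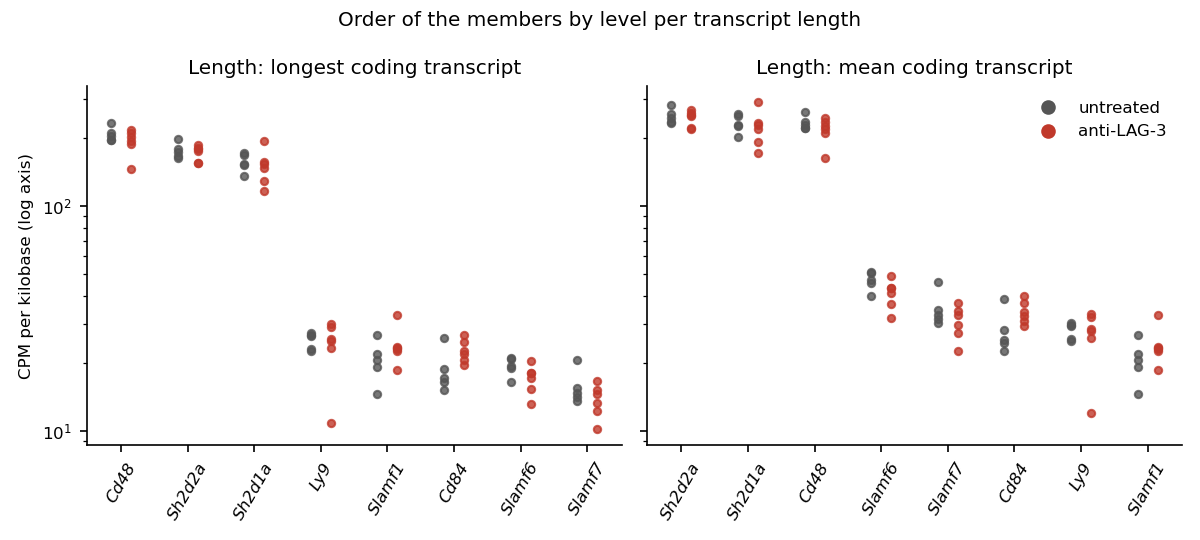
Level of each gene per kilobase of transcript in each library, on a log axis, with untreated libraries in gray and aLAG3 libraries in red. Genes are ordered by their mean, with the longest coding transcript as the length on the left and the mean coding transcript on the right. Cd48, Sh2d1a and Sh2d2a are above the other 5 genes in 11 of 11 libraries in both panels, while the order within the lower set changes.

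The spread of the members between libraries depended on the measure. Their biological coefficient of variation, the spread beyond counting error as estimated by edgeR, was 0.084 to 0.112, below the median of all tested genes, 0.120, for 8 of 8 members. A chi-square statistic for 1 common level within each group, for which sampling alone gives 1 per degree of freedom, was 0.819 for Slamf6, 0.879 for Cd84 and 0.900 for Slamf7, while the median of all tested genes was 1.46. It was highest for Sh2d2a, at 3.17, and Sh2d1a, at 2.43, both above the upper quartile of all tested genes, 2.15. At the same relative spread the statistic rises with the number of counts.

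Other genes of the family were at or near the limit of detection. Cd244a, whose product 2B4 is a receptor for CD48, had 57 reads in all, with 0 to 9 per untreated and 1 to 13 per aLAG3 library, and did not pass the filter. Slamf8 had 1 read and Slamf9 had 4 in all libraries together. Sh2d1b1, which encodes EAT-2, the SAP-like adaptor used by SLAMF7 in natural killer cells, had 3 reads, and its neighbor Sh2d1b2 had none. Against totals of 313524 to 1901374 counts, the 3-count limit that a count of 0 allows lies between 1.58 and 9.57 CPM. The 6 receptor members lie within 365 kb of chromosome 1, from 171588624 to 171953170. Of 18 annotated genes there, 12 were in the table, and the 6 that are not members had at most 14 counts in a library, so that none of them was tested.

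The genes through which these receptors signal were taken from a list of 18 kinases, phosphatases, adaptors and other partners, all of which were tested. Of these, 8 were higher and 10 lower in aLAG3 libraries, 0 of 18 passed the adjusted threshold, and 0 had an unadjusted p under 0.05 in edgeR's quasi-likelihood test (smallest 0.0795). Over all tested genes 3.73% had an unadjusted p under 0.05 and 51.1% were higher. The median log2 fold change of the list was -0.035. It was 0.0039 within barcode 9 and 0.011 without aLAG3 6, with 10 genes then higher and 8 lower, -0.071 without untreated 1 and -0.088 without aLAG3 11, so no direction can be given for the list. With the index label as a covariate, where aLAG3 10 is the only aLAG3 library compared, the median of the list was -0.0014. Without this covariate, the 3 highest were Dok2 at 0.25 (standard error 0.139) and Dok1 at 0.24 (standard error 0.242), adaptors that dampen Ras signaling, and Ptpn11, the gene of the phosphatase SHP-2, at 0.23 (standard error 0.152). At the other end were Rasa1, a Ras GTPase-activating protein that binds Dok proteins, at -0.28 (standard error 0.272), Grb2, an adaptor of growth factor and antigen receptors, at -0.27 (standard error 0.172), and Fyn, the kinase that SAP recruits, at -0.22 (standard error 0.136). Each of these 6 differences was smaller than 2 standard errors.

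**Figure D4:**
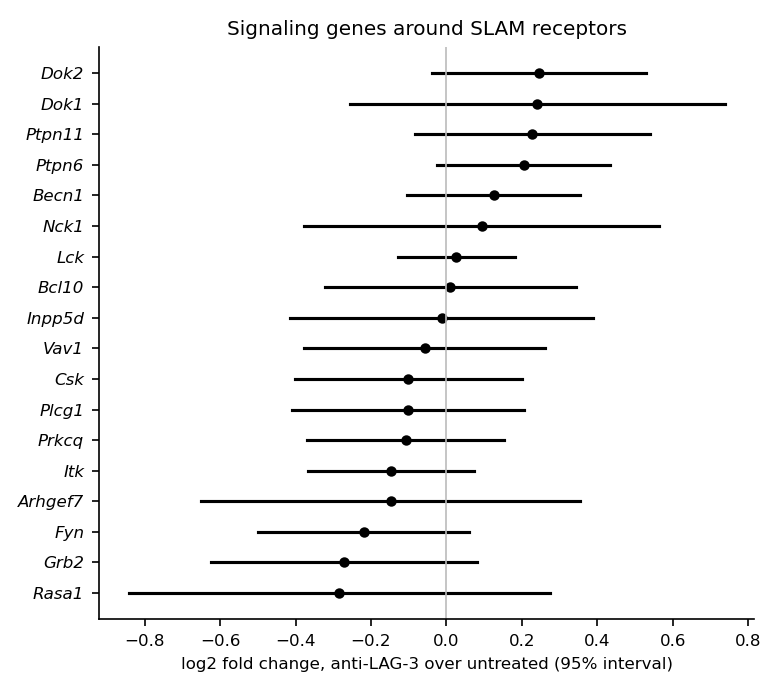
Log2 fold change, aLAG3 over untreated, of 18 genes that act with or downstream of SLAM family receptors. Points are estimates from all 11 libraries and lines their 95% intervals. All 18 intervals include 0, with estimates from -0.28 for Rasa1 to 0.25 for Dok2.

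Across the 11 libraries, the 28 pairs of members had Pearson correlations of log2 CPM from -0.62 to 0.77, of which 13 were above 0. None passed adjustment over the 28 pairs (permutation test with 100000 resamples, smallest adjusted p = 0.332). The highest, between Ly9 and Cd48, was r = 0.77 with a Spearman rho of -0.064. Without aLAG3 10 alone, the library lowest in both and left out after seeing the data, r was -0.31, and it was -0.32 without the 2 libraries farthest from the median of Ly9 and -0.59 within barcode 9. The most negative, between Slamf1 and Sh2d1a, was r = -0.62 (rho = -0.55), which became -0.22 without the 2 farthest libraries and 0.035 within barcode 9. Slamf6 and Slamf1 had r = -0.59 (rho = -0.57), with -0.66 without the 2 farthest libraries and -0.40 within barcode 9.

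**Figure D5:**
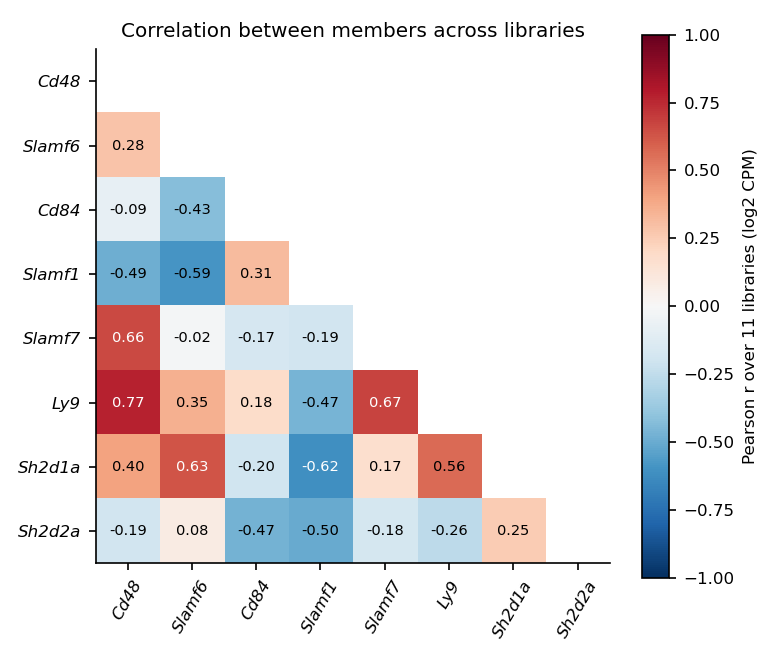
Pearson correlation of log2 CPM over the 11 libraries for each of the 28 pairs of members, from blue (negative) to red (positive). Values run from -0.62 to 0.77, and none passed adjustment over the 28 pairs.

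Of 1779 tested genes with a mean of at least 100 CPM, the 5 most like Slamf6 across libraries were Arhgef1 (r = 0.90, rho = 0.93), Rpl27 (r = 0.89, rho = 0.85), Ppp1r18 (r = 0.85, rho = 0.86), Eif3d (r = 0.85, rho = 0.79) and Tacc1 (r = 0.84, rho = 0.71). Over the 1779 genes none passed adjustment (permutation test with 100000 resamples, smallest adjusted p = 0.107). Without aLAG3 8 and 10, the 2 libraries farthest from the median of Slamf6, r was 0.76, 0.84, 0.73, 0.72 and 0.54 in the same order, and within barcode 9 it was 0.92, 0.63, 0.39, 0.28 and 0.18. The level of no member was related to log2 total counts after adjustment over the 8 members (permutation test, smallest adjusted p = 0.387).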

How the data were processed

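RNA of sorted cells was reverse transcribed on beads with template switching and amplified by PCR. Reads were trimmed and mapped to reference RNA of GRCm38 by the authors, who deposited raw read counts per gene symbol. The submitters' processing notes list cutadapt 4.1 and Bowtie2 2.4.5. The treatment of multi-mapped reads and of strand is not given in the sources used here. Reads carry no molecular identifier in the counts, so intervals and limits cover counting error only.

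Groups came from the treatment label and library numbers 1 to 11 from the description. Sample titles identified the columns of the table. The study gives its n as mice, but the sources used here do not tie each library to a mouse, so p-values measure the spread between libraries. Chi-square per degree of freedom was 1.41 to 3.22 over all 55 library pairs, where counting error alone gives 1, so no pair differed by counting error alone.

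Counts were filtered with filterByExpr (a minimum of 10 counts at median depth, which is 17.7 CPM, in at least 5 libraries, with a total of 15 or more) and normalized by TMM (factors 0.985 to 1.01). Differences were tested with edgeR 4.0.16 (R 4.3.3), by the quasi-likelihood test with Benjamini-Hochberg adjustment over 6949 genes and a threshold of 0.05. CPM values use TMM-normalized totals of the tested genes, which held 95.0% to 95.3% of the counts, and marker sums use total counts. Correlations use log2 CPM with a prior count of 2. limma 3.58.1, DESeq2 1.42.0 and scipy 1.17.1 were also used, and the fits were tested on simulated data.

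Coordinates and transcripts come from GENCODE M21, which annotates GRCm38 and holds 96.3% of the symbols. Shared sequence is the percent of 50-base stretches found in transcripts of other genes. Genes named in the text are the 8 members, Cd2 and 5 further family genes, the 3 highest and 3 lowest of 18 signaling genes, the 5 genes most like Slamf6, and sorting and cell type markers. A sorting marker and a cell type marker that fall under this rule are not reported here. The members and lists were chosen with earlier results of these data known. Genes and libraries named for a count or an exception were chosen after their values were seen. Alternatives covered the test, the normalization, the filter, the primer barcode, the index label, depth, the libraries left out and the transcript length. No sequence of a member is printed, since no result turned on one.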

Additional observations from a re-analysis of the deposited data

Results flagged for a closer look

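Among 18 sets of library values (8 members and the total counts, each in both groups, on a log2 scale), 2 had a library that stood apart by Dixon's test at the 95% level, and chance alone gives about 0.9. Both were aLAG3 10, the shallowest library. Its Ly9 level was 27.1 CPM, from 8 counts, while the other aLAG3 libraries had 58.0 to 74.5 CPM. Its Cd48 level was 172 CPM, from 51 counts, while the others had 223 to 258 CPM. The part of depth in these 2 values was not tested.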

How the results depend on the processing

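No member passed an adjusted p of 0.05 under any alternative (lowest 0.490, for Ly9 with the index label as a covariate, edgeR quasi-likelihood, Benjamini-Hochberg). Cd84 stayed below the unadjusted level in 11 of 13 alternatives other than leaving out 1 library, DESeq2 and the index label being the exceptions, and in 4 of 11 with 1 library left out. Its lowest unadjusted p, 0.00975 in edgeR, came without the 2 shallowest libraries, an alternative chosen after seeing the data. That fit leaves out untreated 2, the untreated library highest in Cd84, as do those within barcode 9 and with barcode as a covariate. In these fits the log2 fold change of Cd84 was 0.42, 0.38 and 0.39, against 0.32 with all libraries and no covariate. Signs turned for Ly9, to -0.0012 with log2 total counts as a covariate, to -1.31 with the index label as a covariate and within -0.045 to 0.097 with a library left out; for Sh2d1a, to 0.0018 with barcode as a covariate, to 0.011 within barcode 9 and within -0.140 to 0.0036 with a library left out; and for Sh2d2a, to 0.070 with the index label and within -0.068 to 0.0088 with a library left out. The causes were not tested. The index fit, added after seeing the data, compares only aLAG3 10 with untreated 2 and 3. The other 5 members kept their sign throughout, but not their size. With the index label the log2 fold change was -0.41 for Slamf6, 0.71 for Slamf1, -0.51 for Slamf7, -0.44 for Cd48 and 0.026 for Cd84, and -0.39 for Sh2d1a. The number of genes past the adjusted threshold was 0 in most fits, 3 without a filter (24024 genes tested), 1 with barcode as a covariate, 16 with the index label, and 0 to 2 with a library left out, 2 of them without aLAG3 7. No paired analysis was possible because the groups share no replicate number, and the index label ties only these 3 libraries across groups. Counting error of the members was widest in the shallowest libraries. The 95% intervals reached 0.150 to 0.345 log2 units to either side.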
